A study of Mus musculus with 192 samples.

Results

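Dach1, a single gene, was followed through its UMI counts (unique molecules counted) in single cells, taken as the row ENSMUSG00000055639 of the deposited counts, 1 of 20764 genes. The cells were 192 single progenitors taken from marrow of C57BL/6 mice (8 to 16 weeks old), enriched on cKit beads, index sorted and called LSK in the labels, a name for cells that lack lineage markers and carry Sca-1 and cKit. All had the same strain label and no treatment arm, and the sorter's signal of each cell for CD135, CD150, CD127, Sca-1, cKit, CD16/32, CD11b and for forward and side scatter is given in arbitrary units. The labels' general husbandry text also lists CD45.1, Cas9-Tg and Dach1-GFP mice, but the cells described here are attributed to C57BL/6. No animal is named, so the cells stand as 1 biological sample, and everything below is a description of them with no test and no p-value.

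Dach1 encodes a nuclear protein with a domain shared with Ski and Sno that acts as a cofactor of transcription, mostly a repressing one. It is best known from the retinal determination network, in which Dach proteins act with those of the Eya and Sine oculis families. In blood formation, LSK cells hold both the long-lived stem cells and the multipotent progenitors that follow them. CD135, the surface receptor encoded by Flt3, is low on stem cells and is gained by progenitors that lean towards the lymphoid side, while CD150 marks stem cells and CD127, the interleukin-7 receptor chain, marks lymphoid progenitors. The title of the series names a loss of Dach1 as a mark of lymphoid-primed progenitors.

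The gene lies on the minus strand of chromosome 14, between 97786853 and 98169765 in GRCm38. Its promoter, from 250 bases before the start to 50 after it (RefSeq, GRCm38.p6, chr14:98169716-98170015), is shown with those of Flt3 (chr5:147400440-147400739, minus strand) and Dntt (chr19:41029025-41029324, plus strand), both of which went against Dach1 from cell to cell. Each is written 5′ to 3′ on the gene's strand. Capitals mark GATAA, the core of GATA factor sites, and TGACAG, the core of MEIS factor sites, with either strand counted, so that TGACAG also stands as CTGTCA.

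Dach1: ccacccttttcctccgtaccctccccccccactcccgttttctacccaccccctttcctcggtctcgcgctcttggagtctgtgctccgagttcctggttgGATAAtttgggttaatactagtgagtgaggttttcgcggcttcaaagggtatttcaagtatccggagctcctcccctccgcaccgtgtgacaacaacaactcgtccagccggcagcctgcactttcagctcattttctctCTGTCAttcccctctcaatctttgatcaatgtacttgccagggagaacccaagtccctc

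Flt3: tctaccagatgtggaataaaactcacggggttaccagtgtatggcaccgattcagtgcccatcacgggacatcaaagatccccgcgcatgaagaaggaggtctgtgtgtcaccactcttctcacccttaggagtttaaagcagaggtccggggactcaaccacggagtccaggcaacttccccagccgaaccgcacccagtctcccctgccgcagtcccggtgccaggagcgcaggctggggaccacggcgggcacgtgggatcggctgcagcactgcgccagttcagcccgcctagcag

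Dntt: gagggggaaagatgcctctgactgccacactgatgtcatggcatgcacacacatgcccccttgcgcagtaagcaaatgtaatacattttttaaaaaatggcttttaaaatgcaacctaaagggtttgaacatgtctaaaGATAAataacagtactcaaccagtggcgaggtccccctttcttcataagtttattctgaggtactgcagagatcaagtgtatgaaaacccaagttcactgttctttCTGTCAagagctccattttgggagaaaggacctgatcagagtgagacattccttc

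The Dach1 promoter held 1 GATAA, at position -149, and 1 TGACAG, at position -9, counted from the start of the gene. It held no TGTGGT, the core of RUNX sites. The 3 motifs were chosen because Gata2, Meis1 and Runx1 encode factors of stem cells, and they do not overlap one another. They are common: of 32851 mouse promoters of this length 25.4% hold GATAA, 19.2% TGACAG and 16.8% TGTGGT. The promoter of Dntt, a gene that went against Dach1, also held 1 GATAA, at -111, and 1 TGACAG, at -5, and the Flt3 promoter held none of the 3. Both tabulated Gata2 promoters and the first of 2 of Muc13 held none, and the second Muc13 promoter held 1 GATAA, at +17. The promoter of Zbtb20, another gene that went with Dach1, held 1 GATAA, at -200, 1 TGTGGT, at -164, and no TGACAG.

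After the depth filter 191 cells remained, with 3927 gene UMIs in the lowest, 17715 in the median and 49372 in the highest cell, and 4910 detected genes in the median cell. They came from 2 library pools, with medians of 17866 in pool 1 and 17404 in pool 2. The pools use the same 96 cell indices. The left-out cell had 708 gene UMIs and no Dach1 UMI. The LSK label was checked against 8 genes: Kit had UMIs in 188 cells, Cd34 had 1845 UMIs, Flt3 1141 and Ly6a, which encodes Sca-1, 161. Of the mature-cell markers, 4 of 12 T, ILC and NK genes (such as Cd3e and Cd8a), 4 of 12 mature myeloid genes (such as S100a8 and Ly6g) and 1 of 10 B-lineage genes (Ms4a1) were at 0. Others were present, with 373 UMIs of Lyz2, 240 of Nkg7 and 98 of Itgam. The summed T, ILC and NK markers had a rank correlation of 0.151 with Dach1 and the summed mature myeloid markers 0.128, and their part in the results was not tested. The summed B-lineage markers stood at 25.05, 194.1 and 46.62 UMIs per 1000000 gene UMIs in the cells of lower, middle and upper CD135 signal (classes of equal size), with 5659 in 1 middle cell, and their rank correlation with Dach1 was -0.006.

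How was Dach1 spread over the cells? It was patchy: many cells had none and a few had much. In all it had 449 UMIs, rank 1348 among the genes, which is 121.2 CPM, meaning UMIs per 1000000 UMIs of all genes, with an exact Poisson interval at 95% of 110.2 to 132.9. At least 1 UMI was seen in 113 of the 191 cells, or 59.2% (exact Clopper-Pearson interval 51.8 to 66.2), and 78 cells had none. The Clopper-Pearson interval takes the cells as its units, and all other intervals here cover only the error of counting UMIs.

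By number of UMIs, 38 cells had 1, 22 had 2, 26 had 3 to 4, 16 had 5 to 9 and 11 had 10 or more. Those 11 cells held 38.8% of all Dach1 UMIs. The highest cell had 33 UMIs, or 7.35% of the total, at 966.7 CPM. The next had 28 UMIs at 1347 CPM, since it held fewer gene UMIs, and then came cells with 19, 15 and 14. Of these 5 cells only the one with 28 UMIs was from pool 2, and all but the one with 14 were in the lower class of CD135.

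**Figure D1:**
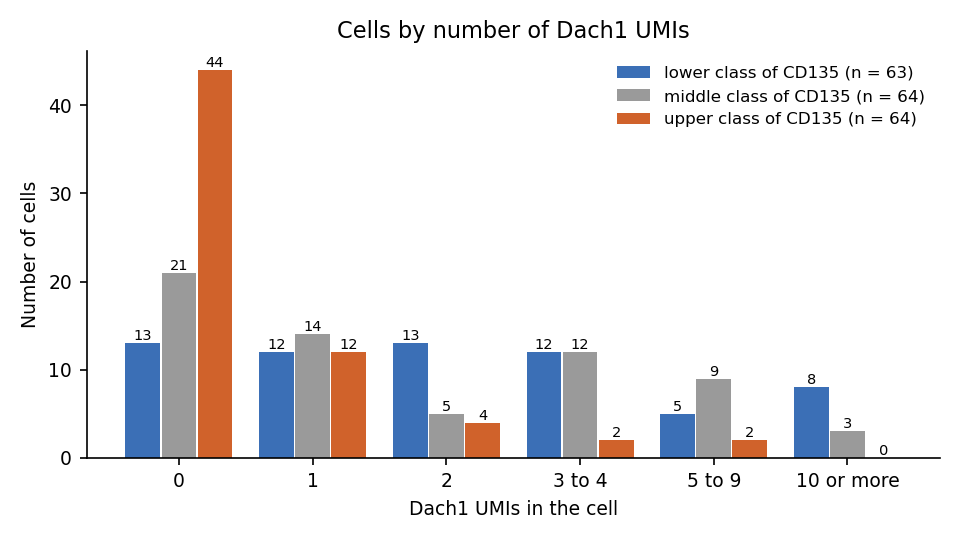
Number of cells (vertical axis) by Dach1 UMIs in the cell (horizontal axis), with a bar for each class of the CD135 signal. Of the 11 cells with 10 or more UMIs, 8 were in the lower, 3 in the middle and 0 in the upper class, while 13, 21 and 44 cells had none.

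Dach1 varied more between cells than its counting error alone gives. To set cells at equal depth, each was thinned to 12147 UMIs, which kept 172 cells and left out 19. The variance of the thinned Dach1 counts was 4.046 times their mean of 1.522, where pure counting gives a ratio near 1. Among the 2274 genes with 0.5 to 2 times the UMIs of Dach1 the median ratio was 1.323, and 98.8% had a lower one than Dach1. As a measure of how well a single cell's count ranks the cell, 2 separate draws of 6073 UMIs from the same cell gave Dach1 counts with a rank correlation of 0.457. The same measure was 0.577 for Flt3, 0.408 for Gata2, 0.478 for Muc13 and 0.684 for Ighm.

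Dach1 CPM went little with depth. Its rank correlation over the 191 cells was 0.093 with the gene UMIs of the cell, 0.178 with the detected genes and 0.014 with the spike-in share. The CD135 signal had -0.054 with the gene UMIs. Pool 1 had 156.6 CPM of Dach1 (139.5 to 175.3) and pool 2 had 82.49 (69.65 to 97.01). Rank correlations and the main ratios are therefore also given for each pool alone, and the classes of a signal were formed within pools. The pools also differed in CD135 signal (medians 478.2 and 701.4). In its lower class the medians were close, at 209.2 and 192.2. There pool 1 had 232.3 CPM of Dach1 (197.7 to 271.2) and pool 2 had 154.6 (124.5 to 189.8). In its upper class, with medians of 1662 and 1693, they had 54.26 (37.57 to 75.82) and 13.92 (6.012 to 27.44). In these classes the pools thus differed beyond counting error at nearly equal median CD135. The part of CD135 in the pools' difference over all cells was not tested.

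Each signal was cut by rank into a lower, middle and upper class of equal size. Which of the signals did Dach1 go with? Of the 9, CD135 stood farthest from 0 with the pools together and was negative, and cKit, CD16/32 and CD150 were positive. In pool 2 alone cKit stood farther from 0, at 0.571, than CD135. The rank correlation with CD135 was -0.462 over all cells, -0.448 in pool 1 and -0.470 in pool 2, and -0.421 at equal depth. Over the lower, middle and upper class of CD135 the lowest cell had 0 CPM in each, the median cell 96.86, 66.35 and 0, and the highest 1347, 790.7 and 386.2. The ranges overlap fully at the low end, and the upper class lacks the highest cells. In log2 the upper class was -2.49 (-2.998 to -2.01) against the lower class, and -2.15 (-2.67 to -1.66) without the 2 cells highest in Dach1. It was -2.10 (-2.68 to -1.56) in pool 1 and -3.47 (-4.73 to -2.43) in pool 2.

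**Figure D2:**
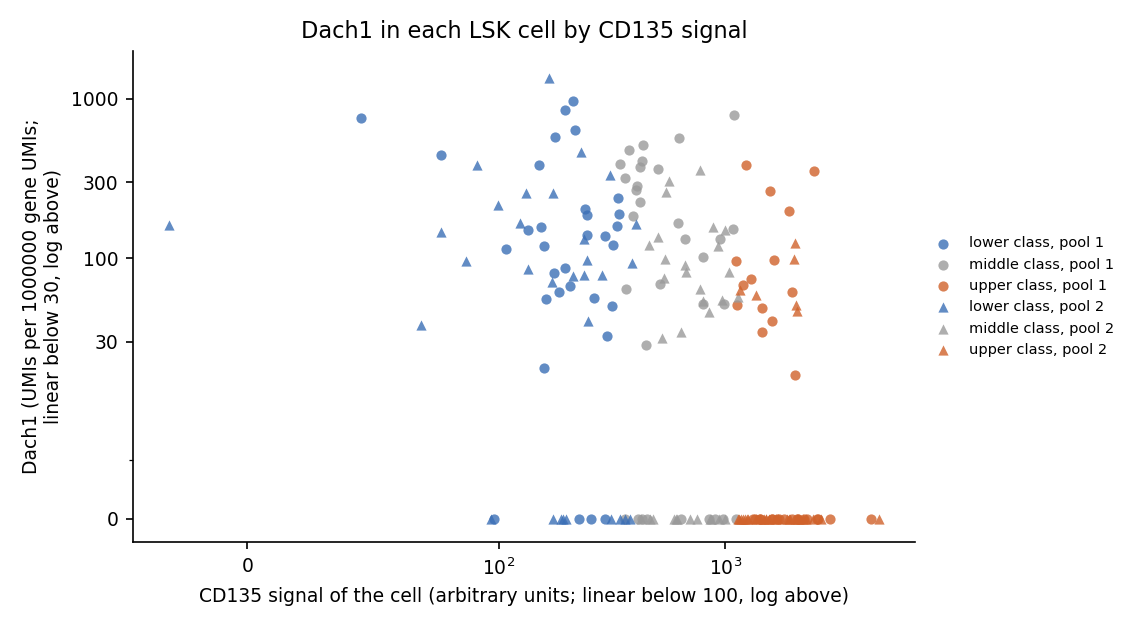
Dach1 in UMIs per 1000000 gene UMIs (vertical axis, linear below 30 and log above) against the CD135 signal of the cell in arbitrary units (horizontal axis, linear below 100 and log above), with 1 point per kept cell, circles for pool 1 and triangles for pool 2. Cells above 500 CPM lie in the lower and middle class, and 44 of the 64 cells of the upper class lie at 0.

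Within the CD135 classes the relation with CD135 was weaker. It was -0.192 in the lower class (n = 63), -0.118 in the middle and -0.211 in the upper (n = 64 each), and -0.170 with ranks taken within class and pool. In pool 2 the middle and upper classes gave 0.043 and 0.02. Seen the other way, Dach1 and CD135 were negative inside every class of each of the other 8 signals, from -0.197 in the upper class of cKit to -0.608 in the upper class of forward scatter. Each of these 24 values was also negative in both pools alone. In the upper class of cKit the pools gave -0.086 and -0.309.

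cKit, the receptor for stem cell factor, had a rank correlation of 0.410 with Dach1, but 0.265 in pool 1 and 0.571 in pool 2. Dach1 stood at 55.21 CPM in the lower class of cKit, 118.1 in the middle and 176.6 in the upper, with a UMI in 23, 36 and 54 cells. The median cell had 0, 49.48 and 97.16 CPM. The log2 ratio of upper to lower class was 1.68 (1.27 to 2.10), and was larger in pool 2 (3.55, 2.46 to 4.90) than in pool 1 (1.09, 0.63 to 1.57), with intervals that do not overlap. The cKit signal itself had a rank correlation of -0.540 with CD135 and 0.258 with gene UMIs. Within CD135 classes the relation was 0.195, and inside the lower class of CD135 it was -0.002 in pool 1 and 0.502 in pool 2. Inside each CD135 class the cells were also parted at the median of each other signal, into those with more and those with less of it. With the pools together, the rank correlation with cKit was 0.245, 0.261 and 0.057 in the lower, middle and upper class. The log2 ratios of Dach1 in cells with more to cells with less cKit were 0.11, 0.37 and 0.20, with all 3 intervals across 0. In the lower and upper classes the pools differed in sign. In the lower class pool 2 had 71 UMIs in the cells with more cKit and 20 in those with less (1.27, 0.53 to 2.06), where pool 1 had -0.37 (-0.83 to 0.10), and in the upper class pool 2 had 8 and 0 UMIs, where pool 1 had 15 and 19. The 2 cells highest in Dach1 are those with 33 and 28 UMIs, 1 from each pool. Without them the lower class had 0.17 (-0.36 to 0.70) in pool 1 and 0.63 (-0.17 to 1.48) in pool 2. With the pools together the lower class had 0.55 (0.14 to 0.98), an interval off 0, without the cell with 33 UMIs alone. Without both cells it had 0.285 (-0.15 to 0.73).

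CD16/32, the Fc gamma receptors that are high on myeloid progenitors, had 0.314 (0.326 and 0.238 in the pools, 0.238 at equal depth). Dach1 stood at 98.6 CPM in its lower class, 103.4 in the middle and 154.6 in the upper, with a UMI in 29, 36 and 48 cells. The lower and middle classes did not differ beyond their intervals. The log2 ratio of upper to lower class was 0.65 (0.32 to 0.99), 0.45 (0.10 to 0.79) without the cell with most Dach1 and 0.82 (0.45 to 1.21) without the 2 highest. By pool it was 1.04 (0.61 to 1.49) in pool 1 and -0.08 (-0.64 to 0.48) in pool 2. Without its own highest cell pool 2 had 0.92 (0.23 to 1.65), and without its own 2 highest 0.70 (-0.02 to 1.45). The signal had 0.245 with gene UMIs and -0.227 with CD135, and within CD135 classes its value with Dach1 was 0.174.

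CD150, the product of Slamf1, had 0.257 with Dach1 (0.270 and 0.219 in the pools, 0.199 at equal depth). Its upper class stood apart, with 176.3 CPM of Dach1, while the lower and middle classes had 93.7 and 82.64 CPM and did not differ beyond their intervals. Leaving out the 2 cells highest in Dach1 brought the log2 ratio of upper to lower class to 0.56 (0.20 to 0.92), against 0.91 (0.57 to 1.26) with them. Part of the difference by CD150 thus rests on 2 cells. The ratio was 0.62 (0.21 to 1.03) in pool 1 and 1.497 (0.85 to 2.19) in pool 2. Without its own highest cell pool 1 had 0.35 (-0.07 to 0.78), and without its own 2 highest 0.69 (0.23 to 1.16). CD150 had 0.298 with gene UMIs.

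The other signals had values nearer to 0. CD11b, an integrin chain of myeloid cells, had 0.142 (0.198 in pool 1 and 0.041 in pool 2) and side scatter 0.141. CD127 had -0.165, and -0.072 without the 14 cells whose CD127 signal was above 2000. Forward scatter, which goes with cell size, had -0.044 and Sca-1 -0.020. The Sca-1 classes had 102.5, 159.8 and 100.7 CPM from lower to upper, but the middle class held both cells highest in Dach1. Without them it had 115.9 CPM (97.37 to 136.9), which overlaps the intervals of the lower and the upper class.

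Single cells moved some of these ratios of upper to lower class across the edge of counting error. Without the cell with most Dach1, CD127 had a log2 ratio of -0.57 (-0.92 to -0.22), against -0.27 (-0.60 to 0.06) with it. Forward scatter had -0.41 (-0.77 to -0.04) without it and -0.13 (-0.48 to 0.22) with it. Without the 2 highest cells, side scatter had 0.31 (-0.08 to 0.70), against 0.55 (0.17 to 0.92) with them. These 3 ratios therefore hang on 1 or 2 cells. They also differed by pool, with -0.51 (-0.89 to -0.13) in pool 1 and 0.105 (-0.58 to 0.80) in pool 2 for CD127, -0.41 (-0.81 to -0.007) and 0.40 (-0.31 to 1.15) for forward scatter, and 0.21 (-0.25 to 0.67) and 1.17 (0.51 to 1.88) for side scatter.

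**Figure D3:**
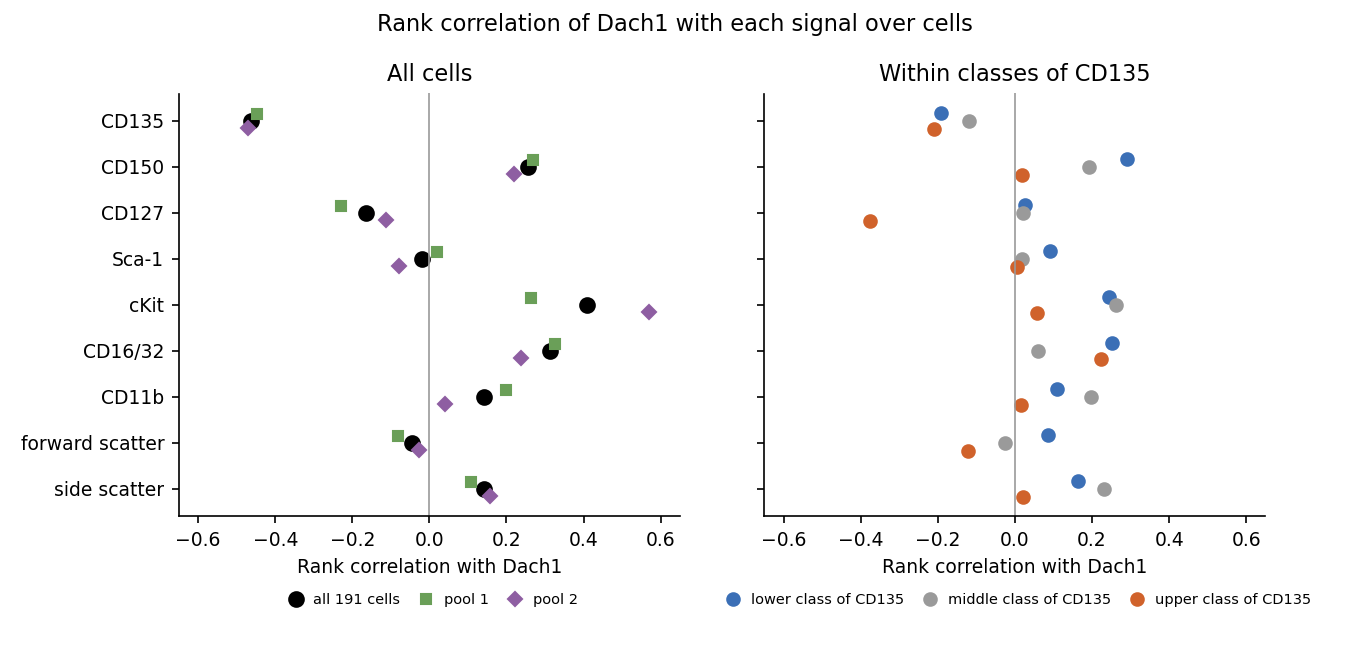
Rank correlation of Dach1 CPM with each of the 9 signals (horizontal axes, no unit), over all 191 cells and each pool on the left and inside each class of CD135 on the right. CD135 is at -0.462 and cKit at 0.410 over all cells, and inside classes the point farthest from 0 is CD127 in the upper class, at -0.377.

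What went with Dach1 among cells of like CD135? In the upper class, where Dach1 was lowest, it was CD127: the rank correlation was -0.377 (n = 64; -0.342 and -0.431 in the pools), against 0.026 in the lower and 0.022 in the middle class. It was -0.341 without the cells with CD127 above 2000 (n = 55; -0.317 and -0.380 in the pools). In CPM, the cells with more CD127 had 24.84 (14.2 to 40.34) from 16 UMIs and the cells with less had 46.67 (30.49 to 68.38) from 26 UMIs. The log2 ratio of -0.91 (-1.91 to 0.04) reached 0 at the edge of its interval. Without the highest Dach1 cell of this class, which had 9 UMIs and was from pool 1, it was -2.04 (-3.49 to -0.80). The cells with more CD127 also had more CD135, with a median signal of 1888 against 1499. In pool 1 these medians were 2007 and 1434, with 15 and 19 Dach1 UMIs (log2 -0.64, -1.72 to 0.42). In pool 2 they were nearly equal, at 1720 and 1693, with 1 and 7 UMIs (log2 -2.92, -8.42 to 0.04). The part of CD135 in the relation with CD127 was not tested.

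Also in the upper class of CD135, the cells with more CD16/32 had 50.05 CPM of Dach1 and the cells with less had 19.94, from 30 and 12 UMIs (log2 1.33, 0.32 to 2.43). This came from pool 1, with 27 and 7 UMIs; pool 2 had 3 and 5. The cells with more forward scatter had 18.37 CPM and the cells with less had 58.78, from 13 and 29 UMIs (log2 -1.68, -2.75 to -0.69). That too came from pool 1, with 8 and 26 UMIs, where pool 2 had 5 and 3. From those 8 UMIs the log2 ratio in pool 2 was -0.66 (-3.34 to 1.71) by CD16/32 and 0.44 (-1.92 to 3.13) by forward scatter. The pool 1 values were 1.88 (0.65 to 3.33) and -2.43 (-3.78 to -1.25). Both pool 2 intervals leave out these values but overlap the pool 1 intervals. The cell with 9 UMIs also weighed here: without it the ratio with the pools together was 0.88 (-0.21 to 2.03) by CD16/32 and -1.22 (-2.35 to -0.14) by forward scatter. The median CD135 signal was 1469 and 1942 in the cells with more and with less CD16/32, and 1926 and 1589 in those with more and with less forward scatter. In this class the pools had opposite signs for 5 of the 7 signals with a ratio in both. By CD150 the log2 ratio was -1.21 (-2.33 to -0.145) in pool 1 and 0.71 (-1.65 to 3.40) in pool 2. By Sca-1 it was 1.18 (0.09 to 2.37) and -1.70 (-5.04 to 0.78).

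Dach1 was highest in the lower class of CD135. There, with the pools together, the ratios by CD150, Sca-1 and forward scatter rested on the 2 cells highest in Dach1. Both cells had more of all 3 signals. The cells with more CD150 had 238.4 CPM (203.7 to 277.3) and in the cells with less the interval was 115.5 to 179.7, a log2 ratio of 0.72 (0.33 to 1.11). Without the 2 cells it was 0.18 (-0.24 to 0.62). In pool 2 it was 1.64 (0.88 to 2.47) with its highest cell and 1.03 (0.21 to 1.91) without it, and in pool 1 it was 0.32 (-0.15 to 0.80) and -0.16 (-0.68 to 0.37). The rank correlation, on which single cells weigh less, was 0.292 (0.251 and 0.334 in the pools) and 0.252 without the 2 cells.

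The cells with more Sca-1 had 246.4 CPM and the cells with less 149.9 (0.72, 0.34 to 1.10). Without the 2 cells the ratio was 0.11 (-0.31 to 0.54), and the rank correlation was near 0 with them (0.091) and without them (0.056). The cells with more forward scatter had 225.4 CPM and the cells with less 158.2 (0.51, 0.13 to 0.90). Without the 2 cells these were 153.2 and 158.2 CPM, a ratio of -0.047 (-0.47 to 0.38), so that the positive sign was gone. For 4 of the 8 signals the pools had opposite signs in this class: cKit, CD16/32, CD127 and CD11b. By CD127 the log2 ratio of more to less was -0.50 (-0.97 to -0.04) in pool 1 and 1.72 (0.99 to 2.52) in pool 2, and the signs stayed opposite without the highest cell of each pool, at -1.17 (-1.72 to -0.62) and 1.10 (0.30 to 1.94). By CD11b it was 0.57 (0.08 to 1.07) in pool 1 and -0.97 (-1.62 to -0.33) in pool 2, and 0.16 (-0.36 to 0.70) and -0.11 (-0.86 to 0.66) without those cells. By CD16/32 it was 0.33 (-0.15 to 0.80) and -0.04 (-0.67 to 0.58).

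In the middle class the intervals lay off 0 for CD11b, with 154.3 CPM in the cells with more and 100.5 in the cells with less (0.62, 0.14 to 1.10), and narrowly for side scatter, with 147.5 and 105.2 CPM (0.49, 0.01 to 0.97). CD150 had 144.7 CPM in the cells with more and 103.6 in the cells with less (0.48, -0.01 to 0.99). Without the highest Dach1 cell of this class, which had 14 UMIs, CD11b had 0.92 (0.41 to 1.45), side scatter 0.32 (-0.18 to 0.82) and CD150 0.33 (-0.18 to 0.84). CD127 then had 0.55 (0.05 to 1.06), against 0.30 (-0.17 to 0.775) with that cell, a sign opposite to that in the upper class. Of the 24 combinations of a signal and a class, 7 had an interval off 0 with the pools together and 4 without the 2 cells highest in Dach1, and these intervals do not cover variation from cell to cell.

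**Figure D4:**
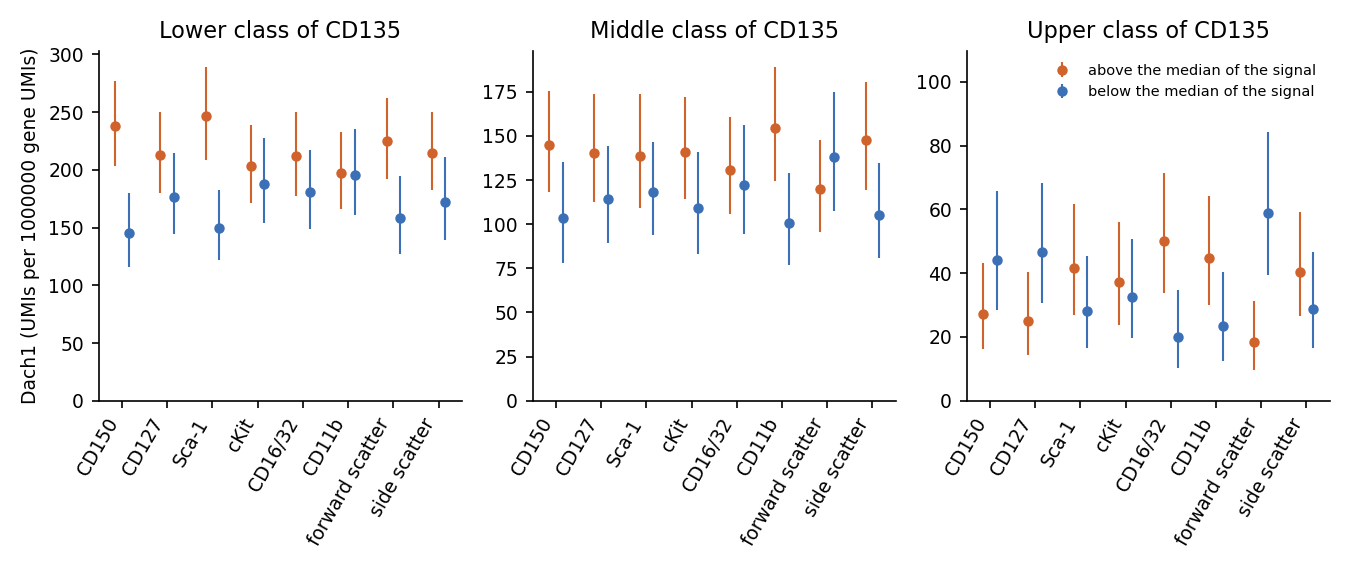
Dach1 in UMIs per 1000000 gene UMIs (vertical axes, which differ in scale) in the cells above (left point of each pair) and below (right point) the median of 8 signals, inside the lower, middle and upper class of CD135. Bars are 95% Poisson intervals. The clearest gaps are CD150 and Sca-1 in the lower class and CD16/32 and forward scatter in the upper class. With the pools together, those in the lower class rest on the 2 cells highest in Dach1. For CD150, pool 2 kept a log2 ratio of 1.03 (0.21 to 1.91) without its highest cell. Those in the upper class come from pool 1.

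Which genes went with or against Dach1 at equal depth? Genes of stem cells went with it, and genes of lymphoid priming went against it. A gene was counted at a rank correlation of 0.2 or more in size over the 172 thinned cells. Of 3264 genes with 200 or more UMIs, 68 went with Dach1, which is 2.08%, and 39 went against it, which is 1.19%. Over all of them the median was 0.006 and the values ran from -0.432 to 0.391, with 5th and 95th percentiles of -0.142 and 0.147. The counts differed by abundance. Of 303 genes with 2000 or more UMIs, 7 went with Dach1 and 18 against (median -0.058). Of 2066 genes with 200 to 499 UMIs, 39 went with it and 9 against (median 0.013). H2afy (8538 UMIs) and Hsp90ab1 (6500 UMIs), named below, are among the abundant ones. In sparse counts from 1 set of libraries a single value of this size is a description only.

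The genes were picked over the cells of both pools together, so a like sign in each pool is largely given by that choice. All 68 genes going with Dach1 had the same sign in pool 1 and pool 2, as did 38 of the 39 going against it. In each pool taken alone, 36 of the 3264 genes reached 0.2 with Dach1 in both and 8 against. By CD135, 63 of the 68 were lower in the upper than in the lower class, and 37 of the 39 were higher there. Dach1 itself was lower in the upper class, so this direction is also largely given by the choice of genes. The share of all genes lower or higher there was not counted.

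Muc13, which encodes a membrane mucin, was highest at 0.391 (0.316 and 0.381 in the pools), with 252.9, 119.9 and 39.96 CPM over the lower, middle and upper class of CD135. Adgrg1, an adhesion receptor gene of stem cells, had 0.370, with 676.4, 668.7 and 440.4 CPM. Csgalnact1, an enzyme gene of chondroitin sulfate synthesis, had 0.353 from 221 UMIs. Gata2, a transcription factor gene that stem cells need, had 0.334, with 194.2, 85.62 and 30.8 CPM over the same classes. Muc13 and Gata2 thus were lower in each next CD135 class, as Dach1 was, while Adgrg1 was level over the lower and middle classes.

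Next came Nt5c3, a nucleotidase gene, at 0.321. Angpt1, which encodes the ligand of the Tie2 receptor, had 0.314. Serinc3, a membrane protein gene, had 0.313, and Dapp1, a phosphoinositide-binding adaptor gene, and Meis1, a homeobox factor gene, had 0.307 each. Nedd4, a ubiquitin ligase gene, had 0.30. All 10 were above 0.2 in both pools.

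Ighm, the IgM heavy chain gene, whose transcription starts early on the lymphoid path, was farthest against Dach1 at -0.432 (-0.358 and -0.472 in the pools). It had 24.27, 162.3 and 490.4 CPM over the CD135 classes. Dntt, which encodes terminal transferase, had -0.325, with 66.54, 163.1 and 855 CPM. H2afy, the macroH2A1 histone gene, had -0.30, with 1171, 2577 and 3232 CPM. These 3 were higher in each next class, the reverse of Dach1.

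Flt3 itself had -0.298 (-0.212 and -0.351), the chromatin organiser gene Satb1 -0.290 and Cd52, a surface glycoprotein gene of lymphocytes, -0.274. Il12a, an interleukin-12 subunit gene, had -0.253, BC035044 -0.235 and Ncf1, an NADPH oxidase subunit gene, -0.233. Hsp90ab1, a heat shock protein gene, had -0.232. It differs from the others in that its level was nearly flat over the CD135 classes, with 1706, 1762 and 1798 CPM.

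Among the genes of the sorted proteins, Kit had 0.247 with Dach1 (0.191 and 0.319 in the pools), the same sign as the cKit signal. Flt3 is given above and has the sign of the CD135 signal. Slamf1 with 17 UMIs, Il7r with 50, Ly6a with 161, Fcgr3 with 23 and Itgam with 98 were under 200 UMIs and were not compared.

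Does the agreement with other genes last among cells of like CD135? More of the genes going with Dach1 than of those going against it stayed at 0.2. With ranks taken within CD135 class and pool, 31 genes (0.95%) reached 0.2 with Dach1 and 2 (0.0613%) against it. Of the 68 genes, 23 were among the 31, and all 68 kept a positive sign, with a median of 0.17 against 0.232 over all cells. Of the 39 genes, 1 was among the 2, and 38 kept a negative sign, with a median of -0.092 against -0.219. Both sets were picked over these same cells, so a kept sign and a median nearer to 0 are largely given by that choice. Whether the 2 directions differ in how far they stayed at 0.2 was not tested.

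Flt3 had -0.038 within the classes, H2afy -0.037, Il12a -0.030 and Ncf1 0.010, so that hardly any of their relation with Dach1 was seen among cells of like CD135. Ighm kept -0.144, Dntt -0.132 and Cd52 -0.150. On the other side Csgalnact1 kept 0.245, Nt5c3 0.237, Adgrg1 0.235, Meis1 0.233 and Dapp1 0.231, while Muc13 kept 0.195 and Gata2 0.170. Muc13 had 0.398 in the lower class of CD135 and 0.006 in the upper.

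The genes highest within classes were partly others. Zbtb20, a zinc finger repressor gene, had 0.308 (0.235, 0.331 and 0.386 in the lower, middle and upper class), with a level of 288.1, 305.0 and 295.5 CPM that did not follow CD135. Ifi203, an interferon-inducible gene, had 0.30 (0.389, 0.282 and 0.209) and had 292.0, 387.3 and 457.1 CPM over the classes, an order opposite to that of Dach1. Its value over all cells was 0.185. Utrn, the utrophin gene, had 0.282, Csgalnact1 0.245 and Mctp1, a C2-domain protein gene, 0.244. Utrn had a nearly flat level as well, with 101.8 CPM in the lower and 118.2 in the upper class.

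On the low side within classes stood Hsp90ab1 at -0.239 (-0.322 in pool 1 and -0.146 in pool 2) and Atp13a3, a membrane ATPase gene, at -0.208. Eif3c, a translation initiation factor gene, and Arf5, a small GTPase gene, had -0.197 each. Nsmce4a, a gene of the SMC5/6 complex, had -0.196 and Nhp2, a small nucleolar RNP gene, -0.194. The last 4 were under the size counted.

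**Figure D5:**
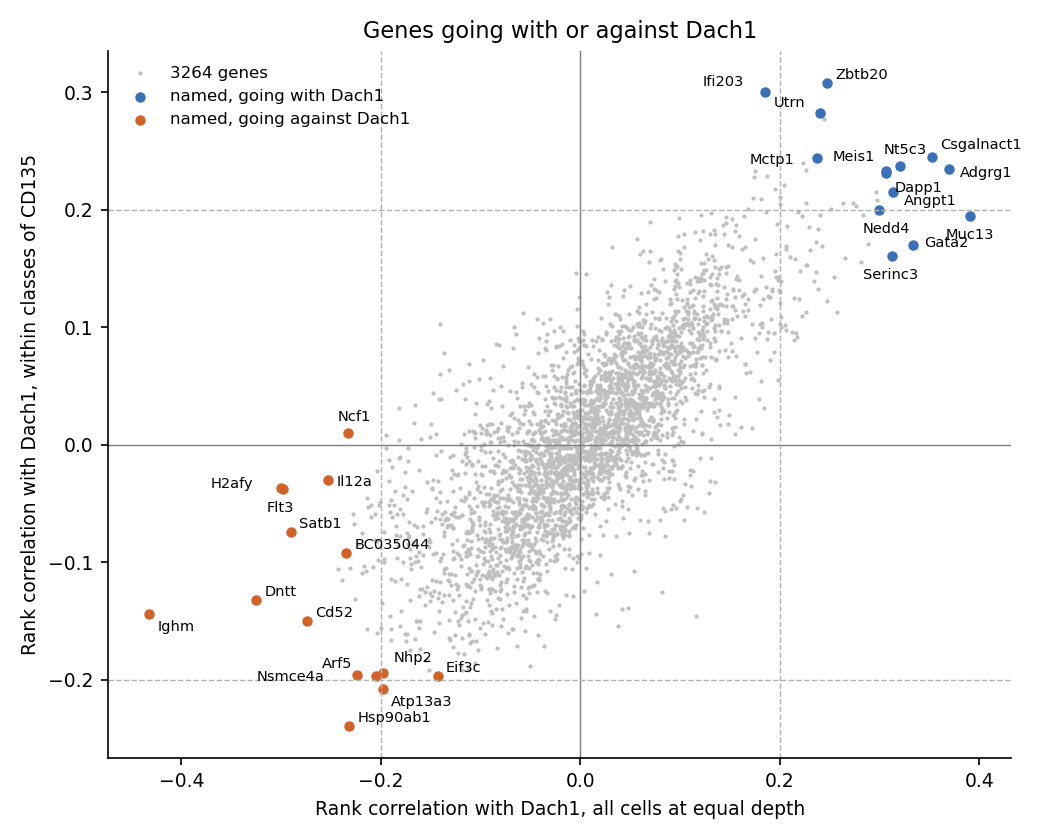
Rank correlation of 3264 genes with Dach1 over all cells at equal depth (horizontal axis) and with ranks taken within classes of CD135 and pool (vertical axis), with 1 point per gene and dashed lines at 0.2 in either direction. The named genes going with Dach1 stay near or above 0.16 on the vertical axis, while H2afy, Flt3, Il12a and Ncf1 lie near 0 on it.

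How did groups of genes stand to Dach1? The lists were chosen with results of these cells known, and are given by counts and medians beside the 2.08%, 1.19% and 0.006 of all genes. Of 20 stem cell genes 10 had enough UMIs, and 7 went with Dach1 and 0 against, with a median of 0.224 that was 0.202 within CD135 classes. Besides Angpt1 and Meis1 these included Mllt3 (0.263), Txnip (0.229), Hlf (0.218) and Ifitm3 (0.204). Hlf, the most abundant of them with 2262 UMIs, was highest in the middle class of CD135 (563.7, 743.7 and 524.5 CPM). The others were Mecom at 0.186, Ifitm1 at 0.091 and Cd27 at -0.030.

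Of 21 stem transcription factors 13 were compared, 4 went with Dach1 and 0 against, and the median was 0.124. The 4 that went with it included Gata2, Lmo2 (0.223) and Tal1 (0.216). Lmo2 kept 0.240 within CD135 classes. Hoxa9, a homeobox factor gene, was the lowest at -0.105 and Runx1 had 0.107.

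Of 24 lymphoid priming genes 15 were compared, and 0 went with Dach1 and 7 against, with a median of -0.195. The 7 were Ighm, Dntt, Flt3, Satb1, Cd52, Lax1 (-0.206) and Ikzf1 (-0.204). Mef2c had -0.160, and Bcl11a, the list's most abundant gene with 1506 UMIs, had -0.046. Within CD135 classes none of the 15 reached 0.2 and the median was -0.038. The list's median thus lay close to the 0.006 of all genes within classes, where the 5th percentile was -0.119. Ighm at -0.144, Dntt at -0.132 and Cd52 at -0.150 lay below that percentile, while Satb1 at -0.074 and Flt3 at -0.038 did not.

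Other blood lineages were mixed. Of 4 megakaryocyte genes compared 1 went with Dach1 and 0 against, and Fli1 had 0.124, Rap1b 0.047 and Plek -0.043. Sums of markers were compared in CPM over all 191 cells without thinning, unlike the single genes. The summed UMIs of all the megakaryocyte markers had a rank correlation of 0.328 with Dach1, with 722.6, 522.7 and 420.4 CPM over the CD135 classes. The summed erythroid markers had 0.211, with 2011, 825.2 and 610.2 CPM. The part of these lineages in the results for Dach1 was not tested. Of 4 erythroid genes compared Car2, a carbonic anhydrase gene, had 0.274, Zfpm1 0.073, Tfrc -0.015 and Car1, with 29.6% of its UMIs in 1 cell, -0.139. Of 7 granulocyte-monocyte genes compared 2 went with Dach1, Srgn at 0.289 and Prtn3 at 0.242, and Mpo had 0.084 and Irf8 -0.152. None of the 5 dendritic and MHC class II genes compared reached 0.2.

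Genes of the cell cycle did not reach 0.2 in either direction. For 14 S-phase genes the median was -0.026, with a range of -0.154 to 0.069. The 3 G2/M genes compared were all below 0: Bub1b had -0.161, Top2a -0.122 and Mki67 -0.067, and within CD135 classes they lay between -0.157 and -0.150. Top2a had -0.261 in pool 1 and -0.031 in pool 2. Of 3 quiescence genes, the cell cycle inhibitor gene Cdkn1b had 0.182, Btg1 0.081 and Foxo3 -0.032.

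The partners that Dach1 is known for were scarce or did not move with it. In the retinal determination list none of 11 genes had 200 UMIs. Dach2, its paralog, had 5, Eya3 135, Eya2 112, Eya1 82, Six5 74 and Six3 and Eya4 1 each. Six2, Six4 and Six6 were at 0. Of 18 corepressor partners of the Dach and Ski family 12 were compared and none reached 0.2, with a median of 0.011 and values from -0.080 to 0.090. Ncor1, a nuclear receptor corepressor gene and the most abundant of them with 1251 UMIs, had -0.029. Crebbp had -0.024 and Tbl1x 0.038. Ski itself was under 200 UMIs, and Skil had 55. Of 16 genes of TGF-beta receptors and Smads 5 were compared, with none at 0.2 and a median of 0.044. Bmpr2 had 0.146 and Tgfbr2 0.123.

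The genes next to Dach1 on chromosome 14 were low. Within 3 Mb, Klhl1 had 3 UMIs, Bora 78, Dis3 130, Pibf1 110, Klf5 9 and Klf12 27, and these and Mzt1 were all under 200. Only Rpl36a-ps1, a pseudogene whose reads can come from its parent ribosomal protein gene, had more, with 2037 UMIs and -0.092 with Dach1. No neighbour could therefore be compared with Dach1 over cells.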

How the data were processed

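The values the authors deposited are unnormalized counts of UMIs for each gene in each cell. Per the labels' protocols, cells were sorted singly and libraries followed a modified CEL-seq2 scheme that primes on poly(A) and tags molecules with 6 random bases, which lets PCR copies be collapsed. For the collapsing rule, the aligner and the counting tool nothing is given in the sources used here. The submitters' processing notes name GRCh38, a human build, while the identifiers are mouse Ensembl ones, so the build used is not known. Symbols (20530 of 20764 genes) and the locus come from GENCODE M21 on GRCm38, matched by identifier.

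Cells needed at least 20% of the median gene UMIs in their pool. Doublets were not called in these singly sorted cells. A cell's pool is the first of the 2 indices that form its title. Dach1 per cell is in CPM of gene UMIs without spike-ins. Lower, middle and upper classes of each signal were ranked within pools, as were the medians that part cells inside CD135 classes, and ratios have exact conditional binomial 95% intervals. For other genes, counts were thinned 20 times to 12147 UMIs per cell, the 10th percentile of depth, and Spearman rank correlations were averaged; 0.2 was the size counted. Correlations inside 1 class use ranks within pool. Scripts were tested on simulated data (Python 3.11.15, numpy 2.4.6, scipy 1.17.1, pandas 2.3.3, matplotlib 3.10.9). Dach1, the lists, motifs and comparisons were chosen with earlier results of these data known.

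Named genes are the 10 highest and 10 lowest over all cells and the 6 highest and 6 lowest within CD135 classes, agreeing in sign between pools, with no cell holding over 20% of the UMIs, and no predicted, pseudogene or ribosomal protein name. Added were genes of the sorted proteins, Dach partners, neighbours on the chromosome and members of described lists; beyond the 4 with most UMIs, list members that reached 0.2 or stood at an end were named after their values were seen. Alternatives were depth, filter, UMI minimum, pool and left-out cells. Some genes that the rule or the lists hold are not reported here.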

Additional observations from a re-analysis of the deposited data

How the results depend on the processing

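The rank correlation of Dach1 with CD135 stayed between -0.470 and -0.421 under all 10 alternatives tried (equal depth, raw UMIs, totals without 3 abundant genes, no cell filter, left-out cells, single pools and ranks within pool), and no signal correlation above 0.1 in size changed sign. Values that moved by more than 0.1 were cKit, 0.265 in pool 1 and 0.571 in pool 2 against 0.410, and CD11b, 0.041 in pool 2 against 0.142. The counts of genes at 0.2, 68 with Dach1 and 39 against, moved more. Thinning to the 5th percentile of depth gave 37 and 22, thinning to the median, with 96 cells, 210 and 172, and CPM without thinning 132 and 81. Pool 1 alone gave 140 and 79, and pool 2 alone gave 105 with Dach1. Fewer cells widen the spread of all correlations, and their part in these counts was not tested. Ranks within pool left 16 against Dach1, ranks within CD135 classes and pool 31 and 2, a minimum of 400 UMIs 35 with it, and leaving out the cells with CD127 above 2000 gave 44 with it. At a size of 0.3 there were 10 and 3. Without the cell with most Dach1 UMIs the counts were 72 and 35, and without the 2 such cells, an alternative chosen after seeing the data, 67 and 37. Leaving out cells highest in Dach1 was also tried after seeing the data for the ratios inside CD135 classes: without the 2 cells the forward scatter ratio in the lower class turned to -0.047, against 0.51 with them, and intervals off 0 numbered 4, against 7.

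No paired analysis was possible because the cells form 1 group. Depth, the pools and single cells all limit the results: the median cell had 0 Dach1 UMIs in the upper class of CD135, so a cell at 0 is not shown to lack Dach1 RNA, and differences inside that class rest on 42 UMIs.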
